A study of Mus musculus with 6 samples.

Results

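Gch1, Pts, Spr and Qdpr encode the enzymes that make and recycle tetrahydrobiopterin, the cofactor that tyrosine hydroxylase needs to start catecholamine synthesis. They were picked by name, as every probe set whose array annotation gives exactly 1 gene and that gene is among these 4. This gave 4 probe sets, 1 for each gene, of 12488 probe sets on the Affymetrix MG_U74Av2 array, where a probe set is a group of short oligonucleotides that queries 1 transcript. The data are intensities from whole adrenal glands of mice of the hypertensive strain BPH (blood pressure high), with 3 arrays, and of the hypotensive strain BPL (blood pressure low), with 3 arrays. No treatment, age or sex is stated for either strain, nor whether an array holds 1 animal or a pool, so the p-values measure the spread between these arrays, which may be technical.

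Tetrahydrobiopterin is made from GTP. GTP cyclohydrolase I (Gch1) catalyses the opening and rate-limiting step, 6-pyruvoyl-tetrahydropterin synthase (Pts) the next, and sepiapterin reductase (Spr) the final reductions. When a hydroxylase has used the cofactor, pterin-4a-carbinolamine dehydratase (Pcbd1) and dihydropteridine reductase (Qdpr) return it to the active form. In the adrenal medulla, chromaffin cells use it to make dopamine, noradrenaline and adrenaline, and nitric oxide synthases depend on it in many tissues.

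Arrays of the same strain correlated across the 7459 tested probe sets with r between 0.919 and 0.959, and arrays of different strains with r between 0.889 and 0.934. Both parts of the gland were present on every array. Of 9 listed markers of the cortex 8 were on the array, with a summed intensity of 665622 to 779526 in BPH and 668903 to 734310 in BPL. Of 16 chromaffin markers 13 were on it, with sums of 267512 to 330615 in BPH and 152604 to 301099 in BPL. Skeletal muscle markers, all 12 on the array, summed to 172954 on BPH 1 and 186966 on BPL 2, against 14117 to 29439 on the other arrays, so 1 array of each strain stands apart in them. All BPL arrays were scanned before all BPH arrays, and scan order and strain cannot be told apart. Fluidics station partly follows strain too, since BPH 1 and BPH 2 were run on station 2 and the other arrays on station 1.

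Within the tetrahydrobiopterin pathway the 4 enzymes did not all differ in the same direction. The intensities of Gch1, at the entry of the pathway, and of Qdpr, in recycling, were higher on every BPH array than on any BPL array. Those of Pts, the enzyme after Gch1, were lower on every BPH array, and those of Spr overlapped. None of the 4 was called at an adjusted p under 0.05 in limma, where 2.56% of all 7459 tested probe sets were called, 1.57% higher and 0.992% lower in BPH. An unadjusted p under 0.05 was reached by 3 of the 4, and 19.3% of all tested probe sets reached it. The 2 strains did not overlap for 3 of the 4, 2 higher and 1 lower in BPH. Of all tested probe sets 26.3% did not overlap, 14.8% higher and 11.5% lower in BPH. The median log2 difference, BPH minus BPL, was 0.15 over the 4 genes and 0.02 over all tested probe sets.

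Gch1 (probe set 102313_at), the rate-limiting enzyme, had intensities of 2331, 2186 and 2637 on BPH arrays 1 to 3, against 1320, 1169 and 1768 on BPL arrays 1 to 3. The BPH arrays lay close together, and the nearest approach of the strains was BPH 2 to BPL 3, a ratio of 1.24. The means were 2384.5 ± 230.0 in BPH and 1419 ± 311 in BPL (SD, n = 3 each). The log2 difference was 0.77 (SE 0.19, 95% interval 0.33 to 1.20), which is 1.70-fold, and it missed the threshold in limma (adjusted p = 0.0772). A difference of that size or larger, in either direction, was found for 7.20% of all tested probe sets. Without BPL 3, the BPL array nearest to BPH, the difference is bound to be larger, and at 0.94 (SE 0.18) it passed in limma (adjusted p = 0.0304), in a fit that called 4.72% of all probe sets. Without any of the other 5 arrays in turn the adjusted p ran from 0.154 to 0.243.

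Pts (160844_at), which converts the product of Gch1, had intensities of 4266.5, 3496 and 3112 on BPH arrays 1 to 3, against 4571, 5592 and 4611 on BPL arrays 1 to 3. Here the BPL arrays were the higher ones, and BPH 1 came within a ratio of 1.07 of BPL 1. The means were 3625 ± 588 in BPH and 4925 ± 578 in BPL (SD, n = 3 each). The log2 difference was -0.45 (SE 0.16, 95% interval -0.80 to -0.09), or 0.733 times the BPL level, and it was not called in limma (adjusted p = 0.169). Of all tested probe sets 21.5% differed by as much in either direction.

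Spr (97886_at), the reductase that completes synthesis, had intensities of 2544.5, 1288 and 1914 on BPH arrays 1 to 3, against 1754, 2003 and 2223 on BPL arrays 1 to 3. The BPH arrays 1 and 2 were the highest and the lowest of all 6, and all BPL arrays lay between them. The means were 1916 ± 628 in BPH and 1993 ± 234 in BPL (SD, n = 3 each), and the log2 difference was -0.11 (SE 0.25, adjusted p = 0.853 in limma). Its 95% interval, -0.66 to 0.45, spans levels in BPH from 0.632 to 1.37 times that in BPL. The sign rested on BPH 2, since without that array the difference was 0.15 (SE 0.21).

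Qdpr (96948_at), the reductase that regenerates the cofactor, had intensities of 10068.5, 9824 and 10639 on BPH arrays 1 to 3, against 8312, 6345 and 8430 on BPL arrays 1 to 3. The BPH arrays were nearly level, with a highest value 1.08 times the lowest, and BPL 2 stood below the other BPL arrays. The means were 10177 ± 418 in BPH and 7696 ± 1171 in BPL (SD, n = 3 each). The log2 difference was 0.41 (SE 0.14, 95% interval 0.10 to 0.73), or 1.33-fold, and was not called in limma (adjusted p = 0.152). A difference as large in either direction was found for 24.3% of all tested probe sets. The coefficient of variation over replicates was 9.65% in BPH and 21.9% in BPL for Gch1, and 16.2% in BPH and 11.7% in BPL for Pts. It was 32.8% in BPH and 11.8% in BPL for Spr, and 4.11% in BPH and 15.2% in BPL for Qdpr, so no enzyme was the most variable in both strains.

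**Figure D1:**
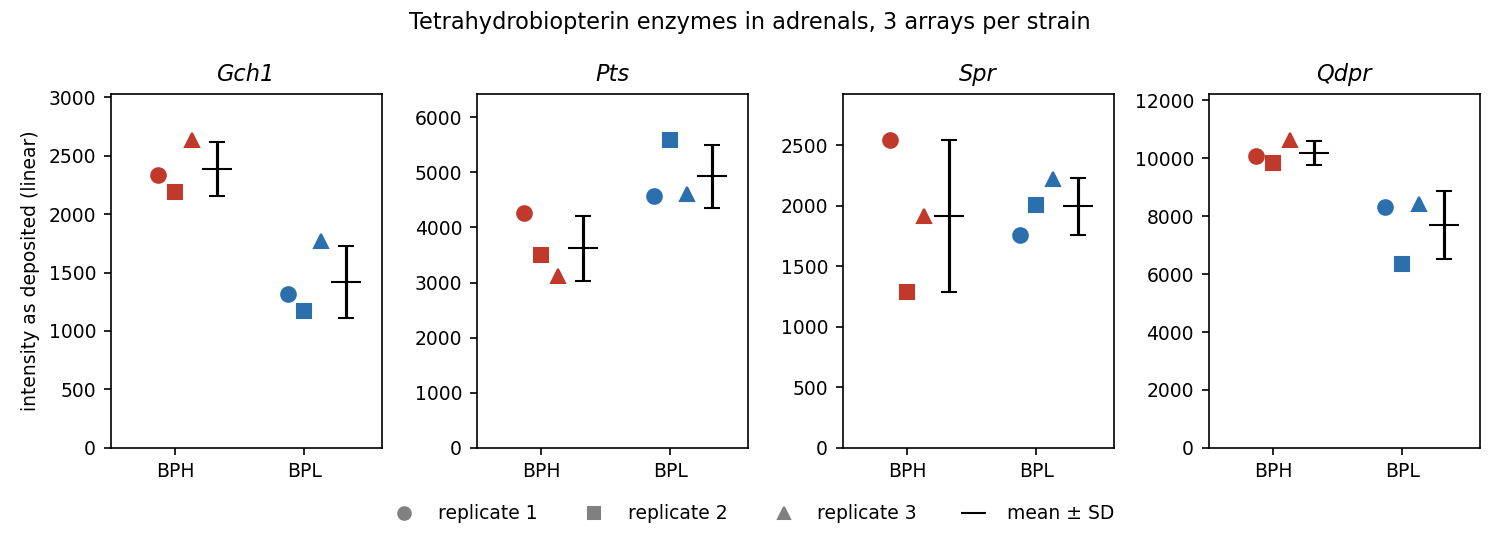
Deposited intensity (linear axis from 0) of Gch1, Pts, Spr and Qdpr on each of 3 BPH and 3 BPL arrays; marker shapes give the replicate number and black bars the mean ± SD. BPH lies wholly above BPL for Gch1 and Qdpr and wholly below it for Pts, while Spr runs from 1288 to 2544.5 in BPH and from 1754 to 2223 in BPL.

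Sequences around the start of the 3 genes whose arrays did not overlap are given here, because Gch1 and Qdpr stood higher in BPH and Pts lower. Each runs from 250 bases before the gene's start to 50 bases after it, on the strand of the gene, in RefSeq's GRCm38.p6 reference, which is neither BPH nor BPL sequence. Capitals mark the CCAAT box, on either strand, and TGACG, the core of the cyclic AMP response element. A cyclic AMP response element and a CCAAT box are known to act together in the rat Gch1 promoter. The regions are chr14:47189364-47189663 for Gch1, chr5:45450180-45450479 for Qdpr and chr9:50528607-50528906 for Pts, all on the minus strand.
Gch1: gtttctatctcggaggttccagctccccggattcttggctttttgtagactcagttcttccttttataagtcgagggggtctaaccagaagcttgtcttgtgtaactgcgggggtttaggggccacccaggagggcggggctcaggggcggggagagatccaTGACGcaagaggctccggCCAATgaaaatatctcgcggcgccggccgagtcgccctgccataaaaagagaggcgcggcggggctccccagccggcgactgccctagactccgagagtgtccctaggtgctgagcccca
Qdpr: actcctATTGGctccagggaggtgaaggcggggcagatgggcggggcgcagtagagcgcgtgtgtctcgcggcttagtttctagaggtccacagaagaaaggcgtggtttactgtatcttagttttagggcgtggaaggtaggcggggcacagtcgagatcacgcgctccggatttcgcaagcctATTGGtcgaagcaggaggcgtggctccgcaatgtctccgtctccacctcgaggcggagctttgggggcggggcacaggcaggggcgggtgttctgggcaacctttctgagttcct
Pts: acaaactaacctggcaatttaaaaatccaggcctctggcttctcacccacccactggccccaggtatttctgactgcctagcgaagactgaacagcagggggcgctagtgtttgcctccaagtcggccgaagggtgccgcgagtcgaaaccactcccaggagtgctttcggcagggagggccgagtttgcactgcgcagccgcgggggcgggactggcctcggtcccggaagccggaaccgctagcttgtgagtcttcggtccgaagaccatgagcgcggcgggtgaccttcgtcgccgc

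Both strands of these windows were searched for the 2 marked motifs. They were also searched for the GC box GGGCGG, for the TATA box TATAAA, and for the full response element, TGACGTCA, which contains its core. The Gch1 window held TGACG from base -88 to -84 and CCAAT from -70 to -66, counted from the gene's start. The Qdpr window held CCAAT in reverse at -65 to -61 and at -244 to -240, and no TGACG. The Pts window, like that of Spr, held neither. All 4 windows held the GC box, only that of Gch1 held the TATA box letters (in reverse, at -188 to -183), and none held the full response element. The background was 32851 RefSeq windows of this length, with a single chromosome left out. Of these, 37.4% held the CCAAT box, 20.8% the core of the response element and 35.7% the GC box. The TATA box letters were held by 13.6% and the full response element by 1.79%. These matches describe the letters and show no binding.

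Among other genes of tetrahydrobiopterin handling, Pcbd2 alone did not overlap between the strains, and it was lower in BPH, as were 11.5% of all tested probe sets. Of 6 listed genes 3 were measured, all 3 were tested, and none was called in either direction. The others were not analysed here. Pcbd2 (104237_at), a second carbinolamine dehydratase, had intensities of 5343, 4757 and 4042 on BPH arrays 1 to 3, against 6265, 6050 and 6176 on BPL arrays 1 to 3. As for Pts, every BPH array was lower, with a log2 difference of -0.40 (SE 0.13, adjusted p = 0.157 in limma). Pcbd1 (99056_at), which acts just before Qdpr in recycling, had intensities of 1458, 1313 and 1756 in BPH, against 830.5, 865.2 and 1539 in BPL. BPL 3 reached into the BPH range, and the log2 difference was 0.53 (SE 0.28, adjusted p = 0.331 in limma). Cbr1, a carbonyl reductase that can stand in for part of the Spr step, overlapped between strains, its log2 difference being 0.28 (SE 0.17, adjusted p = 0.397 in limma).

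Among the enzymes that use the cofactor, tyrosine hydroxylase (Th) was the only tested one of 8 listed. Its intensities were 25099, 21439 and 24862 in BPH, against 12618, 9236 and 22493 in BPL, so that BPL 3 lay within the range of BPH. The log2 difference of Th was 0.78 (SE 0.28, adjusted p = 0.170 in limma). Nitric oxide synthases 1 to 3 (Nos1, Nos2, Nos3) and tryptophan hydroxylase 1 (Tph1) lay under the filter on low values, and the others were not analysed here. Both Tph1 probe sets were under the floor of 201.3 on all 6 arrays. Nos3, the endothelial synthase, had dim intensities of 121.0, 184.9 and 164.8 in BPH, all under the floor, against 294.3, 234.7 and 204.6 in BPL, so its difference is not measured here. Downstream of Th, Pnmt, which makes adrenaline, had log2 differences of 0.98 (SE 0.24) and 1.19 (SE 0.30) at 2 probe sets, with adjusted p = 0.0741 and 0.0770 in limma. Ddc, the decarboxylase between them, had 0.08 (SE 0.47). Its intensities were 5596, 3604 and 4329.5 in BPH, against 2751, 2607 and 10338 in BPL, so that BPL 3 stood far above the other BPL arrays.

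**Figure D2:**
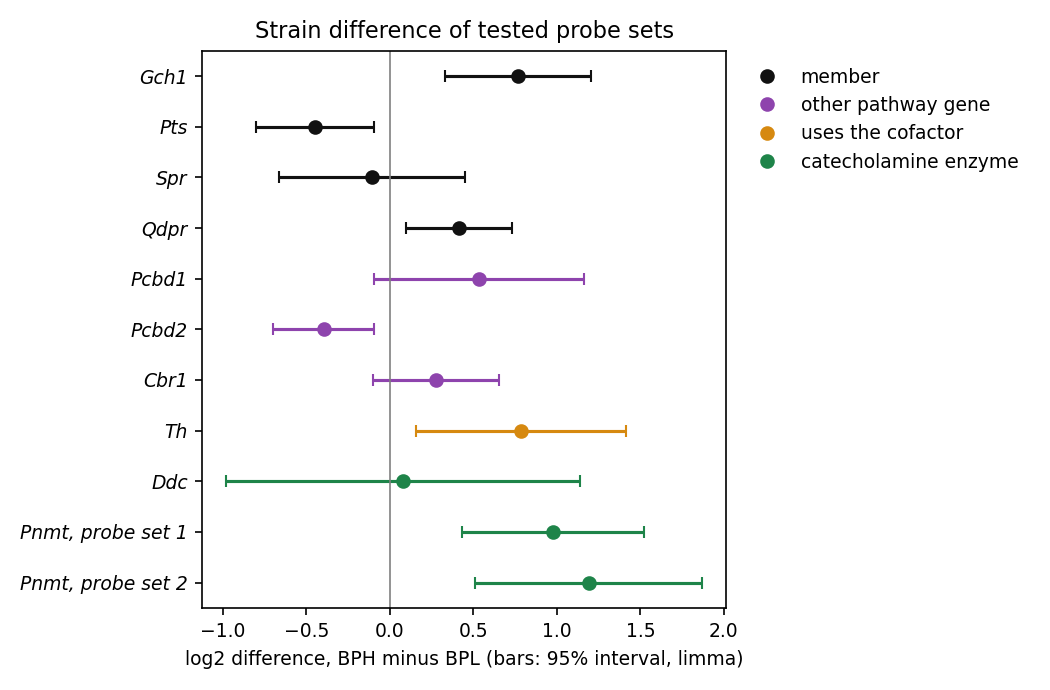
Log2 difference (BPH minus BPL, x axis) of each tested probe set of the pathway, its user Th and the catecholamine enzymes Ddc and Pnmt; points are limma estimates and bars 95% intervals. Gch1 (0.77), Qdpr (0.41), Pcbd1 (0.53) and Th (0.78) lie right of 0 and Pts (-0.45) and Pcbd2 (-0.40) left of it, with none called.

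Array by array, Gch1 can be set beside Th, the enzyme that its product serves. Relative to its own mean over the 6 arrays, log2 Gch1 stood at 0.35, 0.26 and 0.53 in BPH, against -0.47, -0.64 and -0.04 in BPL. On the same scale Th stood at 0.47, 0.24 and 0.46 in BPH, against -0.52, -0.97 and 0.31 in BPL. In both genes BPL 2 was the lowest array and BPL 3 the highest of its strain, but BPL 3 lay below every BPH array for Gch1 and above BPH 2 for Th. The chromaffin markers were mixed on BPL 3, taken at their brightest probe sets. Scg3, Scg5, Cyb561 and Npy were highest of all 6 arrays there, unlike Gch1. For Scg2, Pnmt and Penk, BPL 3 lay below every BPH array, like Gch1, and other markers lay between. The root mean square distance between the centred profiles of Gch1 and Th was 0.21, and 2.31% of 5664 other tested genes lay as close to Gch1 or closer. Closeness to Gch1 was not particular to Th, since Pcbd1 (0.18) and Pnmt (0.19) lay nearer. So did the chromaffin marker mean (0.20), which itself includes Th and Pnmt. For Qdpr the distance to Th was 0.34, with 56.4% of the genes as close, and for Pts it was 0.78, with 94.7%. This distance reflects the size of the changes as well as their pattern. The Qdpr profile varied less, with a root mean square of 0.25 around its mean, against 0.43 for Gch1. In Qdpr too BPL 2 was the lowest array, at -0.47, but BPL 3, at -0.06, was nearly level with BPL 1, at -0.08. Pts lay at 0.12 from Pcbd2 and at 0.68 from Gch1, where the median gene lay at 0.38 from Pts. Closeness to Pts was not particular to Pcbd2, since other genes lay nearer, such as Mrps25 at 0.06.

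Ratios between genes on the same array do not depend on how an array was scaled, and 8 of them, chosen with these values known, were computed. The log2 ratio of Gch1 to Pts was higher in BPH by 1.21, a 2.32-fold change in their balance. It stood at 0.33, 0.53 and 0.96 in BPH, against -0.59, -1.05 and -0.18 in BPL, centred on the mean. This separation follows from the opposite directions of the 2 genes and is no further evidence. The log2 ratio of Gch1 to Th stood at -0.12, 0.02 and 0.07 in BPH, against 0.05, 0.33 and -0.36 in BPL. The strain means of that ratio differed by -0.02, but the BPL arrays spread widely around theirs, with SDs of 0.10 in BPH and 0.35 in BPL (n = 3 each).

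Most chromaffin markers had positive differences that were not called. Their mean log2 intensity, over the 12 that passed the filter, was 13.45, 13.20 and 13.49 in BPH, against 12.68, 12.45 and 13.49 in BPL, so that BPL 3 equalled the highest BPH array. Of the 12, 11 had a positive difference, 3 were higher without overlap (14.8% of all tested probe sets were) and 9 overlapped. Penk, for enkephalin precursor, was the 1 called at its brightest probe set (log2 difference 0.61, adjusted p = 0.0487 in limma), where 2.56% of all probe sets were called. That call ended with no filter on low values (adjusted p = 0.127 in limma), and another Penk probe set was not called (0.65, adjusted p = 0.403 in limma). In whole glands, a larger share of chromaffin cells and more RNA per chromaffin cell cannot be told apart. With the chromaffin mean as a covariate the log2 difference was 0.48 for Gch1 (SE 0.19), 0.26 for Qdpr (SE 0.15), -0.36 for Pts (SE 0.19) and -0.31 for Spr (SE 0.30). With that mean subtracted from every value, which moved the median of all probe sets to -0.48, the difference was 0.26 for Gch1 (SE 0.42), -0.09 for Qdpr (SE 0.38), -0.96 for Pts (SE 0.39) and -0.61 for Spr (SE 0.42). That subtraction shifts every probe set alike, so a difference relative to the median cannot change and says nothing new. As reported and there, it was 0.74 for Gch1, 0.39 for Qdpr, -0.47 for Pts and -0.13 for Spr. None passed in limma in either fit.

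Brown fat markers, like Pts, had lower values in BPH. Of 8 listed 7 were on the array and 5 passed the filter, all 5 with a negative difference and 1 of them called, and their summed intensity was 37233 to 64585 in BPH and 101098 to 293768 in BPL. BPL 2 was highest in both the brown fat sum and Pts, but the lowest array was BPH 2 in that sum and BPH 3 in Pts. BPL 1 and BPL 3 were nearly level in Pts (4571 and 4611) and apart in the brown fat sum (140819 and 101098). With the brown fat mean as a covariate, which itself follows strain, the log2 difference was -0.06 for Pts (SE 0.30), 0.34 for Gch1 (SE 0.39), 0.09 for Qdpr (SE 0.26) and 0.38 for Spr (SE 0.49). Strain and brown fat content cannot be told apart in that fit. Of 8 listed markers of white and general fat 6 were on the array, and all 6 were tested. Their differences went both ways, 2 positive and 4 negative, and 1 was called lower in BPH (0.992% of all tested probe sets were). Their summed intensity was 142542 to 168452 in BPH and 120677 to 195351 in BPL. Macrophages and endothelium also make tetrahydrobiopterin, and their markers went both ways with none called. Of 8 tested macrophage markers 3 were higher in BPH without overlap (Mrc1 0.72, Lyz2 0.49 and Csf1r 0.44 on the log2 scale) and 2 lower (C1qb -0.80 and C1qc -0.38). These are the brightest probe sets, and another tested probe set overlapped for Csf1r (-0.18) and for C1qb (-0.14). Of 8 endothelial markers 1 was higher without overlap (Tek 0.36) and 1 lower (Tie1 -0.70). Of all tested probe sets 14.8% were higher and 11.5% lower without overlap. The part of either cell type in the differences of the 4 enzymes was not tested. Without BPH 1 and BPL 2, the arrays with muscle transcripts, the log2 difference was 0.65 for Gch1, 0.29 for Qdpr, -0.48 for Pts and -0.33 for Spr.

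**Figure D3:**
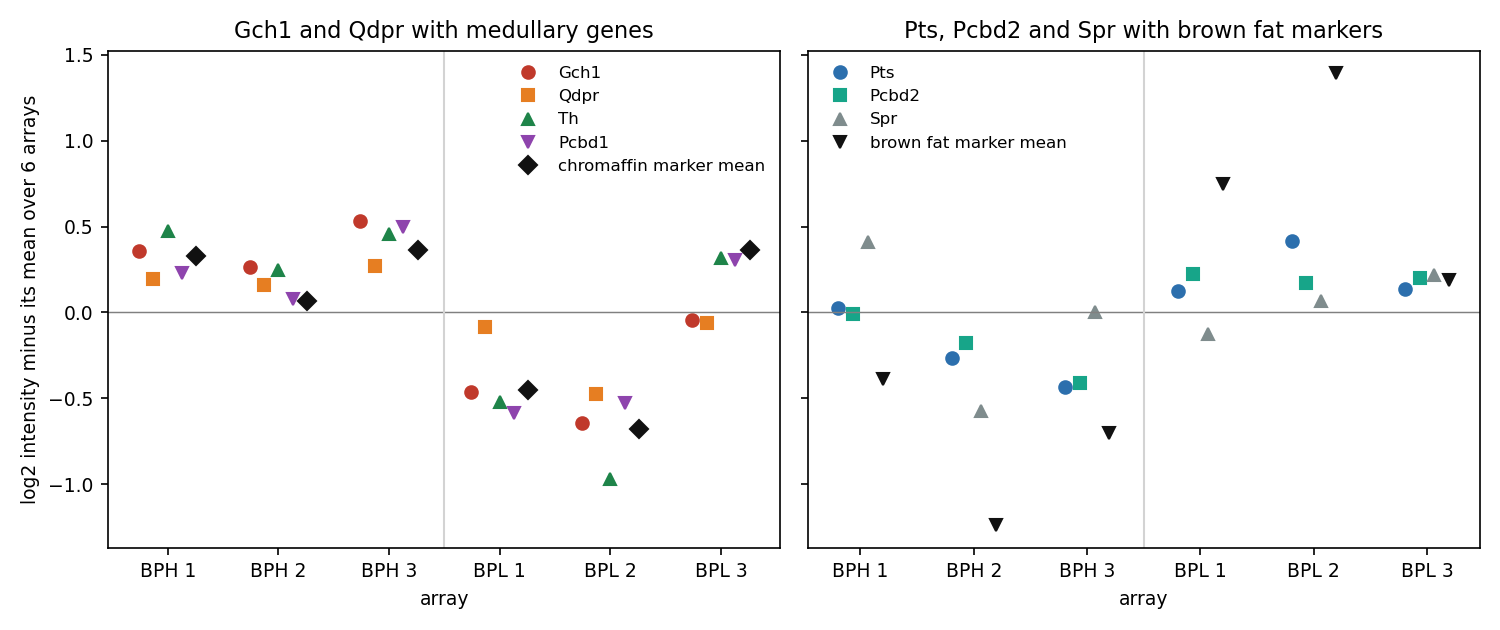
Log2 intensity minus its mean over 6 arrays (y axis) on each BPH and BPL array (x axis), for Gch1, Qdpr, Th, Pcbd1 and the chromaffin marker mean on the left, and for Pts, Pcbd2, Spr and the brown fat marker mean on the right. On the left BPL 2 is low (-0.64 for Gch1, -0.97 for Th). BPL 3 is high for its strain except in Qdpr, where it is nearly level with BPL 1. On the right Pts and Pcbd2 lie above 0 on every BPL array.

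By the same distance, the 5 tested genes most like each enzyme were named. Nearest to Gch1 were Cdc42ep4, a Cdc42 effector (distance 0.04), the homeobox gene Hoxb9 (0.08), the imprinted gene Peg10 (0.08), the splicing factor gene Ptbp2 (0.09) and the G protein subunit gene Gna14 (0.10), where the median gene lay at 0.46. Nearest to Pts were the mitochondrial ribosomal protein gene Mrps25 (0.06), the sulfur dioxygenase gene Ethe1 (0.08), the p38 kinase gene Mapk12 (0.08), Arap3 (0.08) and the proteasome subunit gene Psmc6 (0.08), against a median of 0.38. Nearest to Qdpr were the zinc transporter gene Slc39a6 (0.03), Islr (0.04), Cds2 (0.04), the syntaxin gene Stx5a (0.04) and Smim14 (0.04), against a median of 0.31. Spr had no neighbour as close, with Unc5c, a netrin receptor gene, at 0.12, and Dctn1 (0.12), Tle5 (0.13), Tinf2 (0.14) and Wnt5a (0.14), against a median of 0.40. None of these 20 genes was called in limma between the strains.

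Of 22 refits per enzyme, 7 change only the filter, the floor, the variance estimate or a balanced block and leave the difference as it was. Over the other 15 the log2 difference ran from 0.26 to 0.94 for Gch1 and from -0.96 to -0.06 for Pts, the last within its SE of 0. Within fluidics station 1, where BPH 3 alone was set against the BPL arrays, it was 0.92 for Gch1 (SE 0.32), 0.48 for Qdpr (SE 0.25), -0.66 for Pts (SE 0.23) and -0.05 for Spr (SE 0.26), and the lone BPH array was assumed to vary like the BPL arrays. The station as a block gave the same differences, and none passed in limma in either fit.

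**Figure D4:**
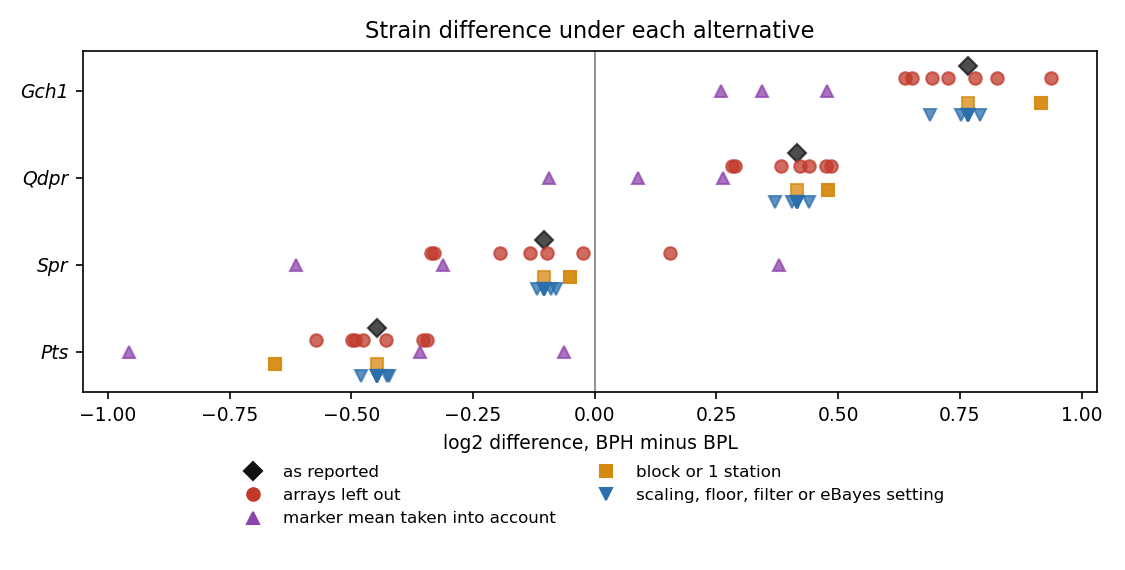
Log2 difference (BPH minus BPL, x axis) of each enzyme as reported and in 22 refits, by kind of alternative. Gch1 lies between 0.26 and 0.94 and Pts between -0.96 and -0.06, while Spr has values on both sides of 0. The 1 Qdpr value below 0 (-0.09) comes from subtracting the chromaffin mean, which moved the median of all probe sets to -0.48.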

How the data were processed

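Each array has 1 deposited intensity, on a linear scale, for every probe set. The values themselves show that the authors had brought the arrays to a common level, with means trimmed by 2% at both ends of 2501.3 to 2501.5. Which software summarised the probes is not stated in the sources used here. Run files name the chip type, fluidics station and scan order. Genes came from the platform annotation (10855 probe sets with 1 gene, 396 with several, 1237 with none), with 10839 updated by gene number to RefSeq symbols of GRCm38.p6.

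Values under 201.3, the 20th percentile, were set to it and taken to log2, which understates changes of dim genes. The 66 control probe sets and those with a mean under 678.6, the 40th percentile, were left out, leaving 7459. All 4 enzymes passed, with no array at the floor. Differences were fitted with lmFit and eBayes (trend) in limma 3.58.1 under R 4.3.3, two-sided, with Benjamini-Hochberg adjustment over all tested probe sets. The step was tested on simulated data with independent errors, which hold no shifts shared by many probe sets of an array. The number of arrays limits the precision.

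The named genes are the 4 enzymes, the other genes and users of the pathway, and per enzyme the 5 genes (brightest probe set) with the smallest root mean square difference of centred log2 profiles. Enzymes, lists and alternatives were chosen with earlier results of these data known. Leaving out the muscle-rich arrays and subtracting the chromaffin mean were chosen after seeing the data.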

Additional observations from a re-analysis of the deposited data

How the results depend on the processing

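Quantile normalization, scaling to one median and the offset changed no sign or call of the 4 enzymes, and the other floor, filter and eBayes settings cannot move their differences and changed no call. Qdpr stood at -0.093 with the chromaffin mean subtracted, a common shift: relative to the median of all probe sets it was 0.39 there and as reported. Spr turned to 0.38 with the brown fat mean as a covariate and to 0.15 without BPH 2. With 1 array left out the log2 difference ran from 0.64 to 0.94 for Gch1, which passed only without BPL 3 (0.94), from -0.57 to -0.34 for Pts, from 0.28 to 0.49 for Qdpr and from -0.34 to 0.15 for Spr. The cause of the Spr turns was not tested.

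The count of all probe sets called, 191 (117 higher, 74 lower in BPH), depended on single arrays, with a range from 42 (without BPH 2) to 352 (without BPL 3). It was also 90 without BPH 1, 51 without BPH 3 and 90 without BPL 1. Testing every probe set gave 52, and it was 72 without the trend, 44 at an adjusted p under 0.01, 17 with the station as a block, 7 within station 1 and 116 without the arrays rich in muscle transcripts. With the chromaffin mean as a covariate it was 53, and with the brown fat mean limma called 0, while 435 had an unadjusted p under 0.05. With the chromaffin mean subtracted it was 181, of which 17 were higher and 164 lower in BPH. With the replicate block it was 124, and the block changed no call of the 4 enzymes (0.77 for Gch1). The numbers share no stated pairing: deviations of same-numbered arrays correlated at -0.21, -0.08 and 0.01 across probe sets.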
